A study of Mus musculus with 56 samples.

Results

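Topotecan and irinotecan, both derivatives of the plant alkaloid camptothecin, were compared here in cultured mouse cortical neurons. The comparison used 17 of the 56 Affymetrix arrays of the study, all of the later gene-level type, of which there were 34. They were chosen by their labels: 6 arrays of topotecan at 1 µM and 6 of the matching vehicle, and 3 arrays of irinotecan at 10 µM and 2 of a vehicle that also served a topotecan washout experiment. All neurons came from C57BL6 embryos of embryonic day 13 to 15 and had 7 days in vitro before drug or vehicle was added. The labels allow 24 or 72 h of drug and do not say which array had which. The effect of a drug is the mean log2 intensity of its arrays minus that of its own vehicle arrays. The quantity reported is the irinotecan effect minus the topotecan effect, with its standard error (SE), for each of 13308 genes and for this 1 pair of compounds. The doses differed, the drugs were given in 2 experiments, and the arrays of the experiments differed in overall intensity, so compound, dose and experiment cannot be told apart and no difference below is credited to structure. Nothing states that the replicates were separate cultures, so p-values measure only the spread between these arrays, which may be technical.

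Camptothecins bind topoisomerase I while it is joined to a nicked DNA strand and keep the nick from closing, which blocks the removal of twist ahead of RNA polymerase and leaves a broken strand when a polymerase runs into it. Topotecan carries a hydroxyl and a dimethylaminomethyl group on the camptothecin rings and is active as given. Irinotecan carries an ethyl group and a bipiperidine carbamate ester, is far less active as given, and is turned into its active phenol by carboxylesterases. In neurons, topoisomerase I activity is needed most for transcripts of very long genes, many of which encode synaptic and adhesion proteins.

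The arrays of the topotecan experiment had mean intensities of 178 to 183 and those of the irinotecan experiment of 141 to 144, and the 10th percentile of log2 values was 3.49 to 3.61 in the former and 2.61 to 2.66 in the latter. Dim genes thus reached lower values in the irinotecan experiment. A gene was kept where its mean over all 34 arrays of the type passed 5.01 on the log2 scale, and no fold change is given where a group mean lies under that limit. The label of cortical neurons was checked against fixed marker lists: 15 of 16 markers of excitatory neurons and 15 of 19 of inhibitory interneurons were kept, as were 16 of 20 of astrocytes, 24 of 25 of proliferating cells and 16 of 18 of fibroblasts and meningeal cells. Of the microglial markers 8 of 15 were kept, without Aif1, Csf1r, Itgam, Ptprc and P2ry12, and of the oligodendrocyte markers 6 of 16, without Pdgfra, Sox10 and Mog. The vehicle cultures of both experiments were also set on 1 scale by a new quantile normalization of the 17 arrays. On that scale the mean of the astrocyte markers was 8.43 to 8.69 in the topotecan vehicles and 7.88 to 8.11 in the irinotecan vehicles. The microglial mean was 6.17 to 6.65 against 5.46 to 5.53, the mean of proliferating cells 6.91 to 7.41 against 6.11 to 6.25, and the mean of excitatory neurons 7.28 to 8.06 against 8.27 to 8.28. The untreated cultures of the topotecan experiment therefore had higher glial and proliferation marker RNA, and their part in the differences below was not tested. In bulk RNA, fewer cells of a type and less RNA per cell cannot be told apart.

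The effects of topotecan and irinotecan differed past the threshold (limma, Benjamini-Hochberg adjusted p of 0.05 over all genes) in 321 of 13308 genes (2.41%). The irinotecan effect lay above the topotecan effect in 209 of them (1.57%) and below it in 112 (0.842%). Of the 321, 219 also differed by at least 1.5-fold (1.65% of all genes). Per-array effects of the drugs did not overlap in 3697 genes (27.8%), and all 321 were among these. At an unadjusted p of 0.05 the count was 2674 genes (20.1%). Against its own vehicle topotecan changed 5659 genes (42.5%), 2639 higher (19.8%) and 3020 lower (22.7%). Irinotecan changed 2995 genes (22.5%), 1791 higher (13.5%) and 1204 lower (9.05%). The median SE was 0.079 for the topotecan effect with 12 arrays and 0.126 for the irinotecan effect with 5, so the smaller count for irinotecan comes with a less precise effect. Both drugs changed 2056 genes in the same direction, which is 68.6% of the genes that irinotecan changed and 36.3% of those that topotecan changed, and 33 genes in opposite directions. Across the 13308 genes the effects, which share no array, had a Pearson r of 0.756 and a Spearman rho of 0.589, with a major-axis slope of 0.968 for irinotecan on topotecan.

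The count of differences depended on single arrays. It was 180, 131 and 95 without irinotecan replicate 1, 2 and 3, and 45 and 102 without irinotecan vehicle replicate 1 and 2. It was 186 without topotecan replicate 2, 203 and 155 without topotecan vehicle replicate 1 and 2, and 832 without topotecan vehicle replicate 4. Of the 321 genes called, 65.1% had irinotecan above topotecan, and this split turned to 24.4% when each array was centred on its median, which moved the median difference of all genes from 0.09 to -0.03. The direction of small differences is therefore not settled, and genes are described relative to these medians where it matters.

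**Figure D1:**
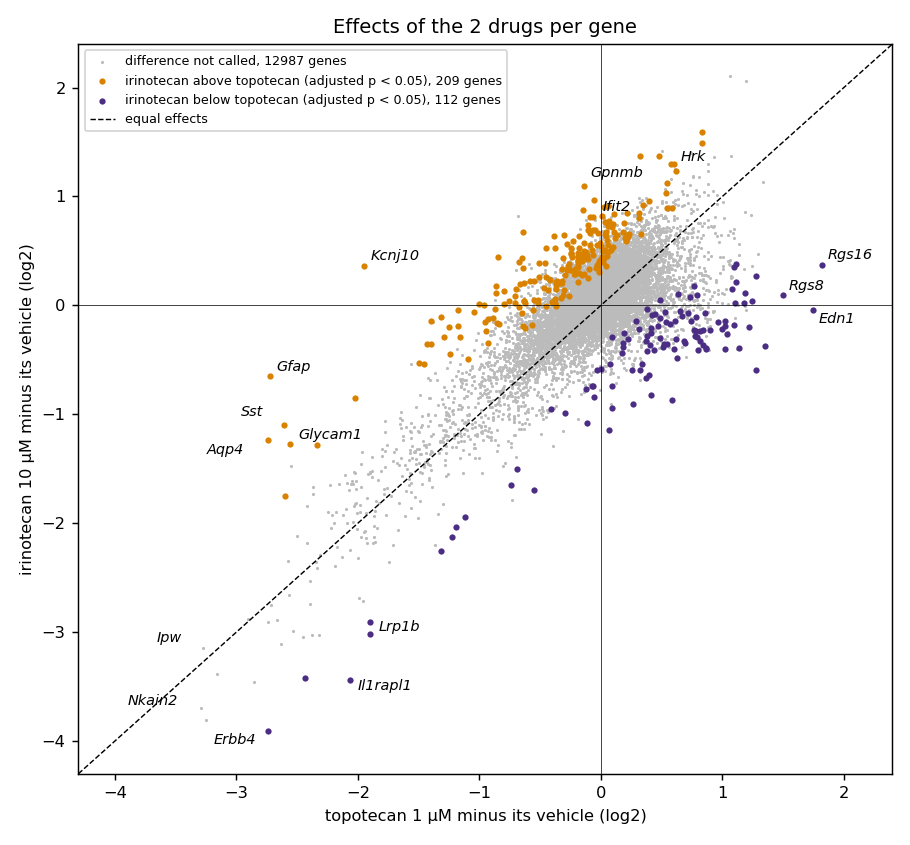
Each point is 1 of 13308 genes, with the topotecan effect (1 µM minus its vehicle, log2) on the horizontal axis and the irinotecan effect (10 µM minus its vehicle, log2) on the vertical axis; orange and purple points are the 209 and 112 genes whose effects differed with irinotecan above or below topotecan. Most strongly lowered genes lie near the dashed line of equal effects. Kcnj10 and Gfap lie far above it and Rgs8 and Rgs16 far below it. Edn1 also lies far below it, but its irinotecan and irinotecan vehicle arrays were all under 5.01, so no difference is read from it.

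The loss of long-gene RNA was of like size with both drugs. To score it, the average over the 11246 shorter genes was taken from the average over the 1986 genes longer than 100 kb in each array (log2), called the long-gene score. It was 0.47 ± 0.03 (SD, n = 6) in the topotecan vehicle and -0.03 ± 0.03 (n = 6) with topotecan, and 0.58 ± 0.01 (n = 2) in the irinotecan vehicle and 0.07 ± 0.02 (n = 3) with irinotecan. In both experiments every treated array lay below every vehicle array. The score changed by -0.50 with topotecan (2-sided exact permutation test, p = 0.00216) and by -0.51 with irinotecan, where 2 against 3 arrays cannot go below the p of 0.1 that the same test gave. The irinotecan effect minus the topotecan effect was -0.006 ± 0.030 (SE), with a 95% interval of -0.07 to 0.06. Other settings gave differences from -0.049 with a length limit of 200 kb to 0.051 with no filter on dim genes, so its sign is not settled. Among these long genes the effects had an r of 0.893 and a slope of 1.05, against an r of 0.559 among the shorter ones.

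**Figure D2:**
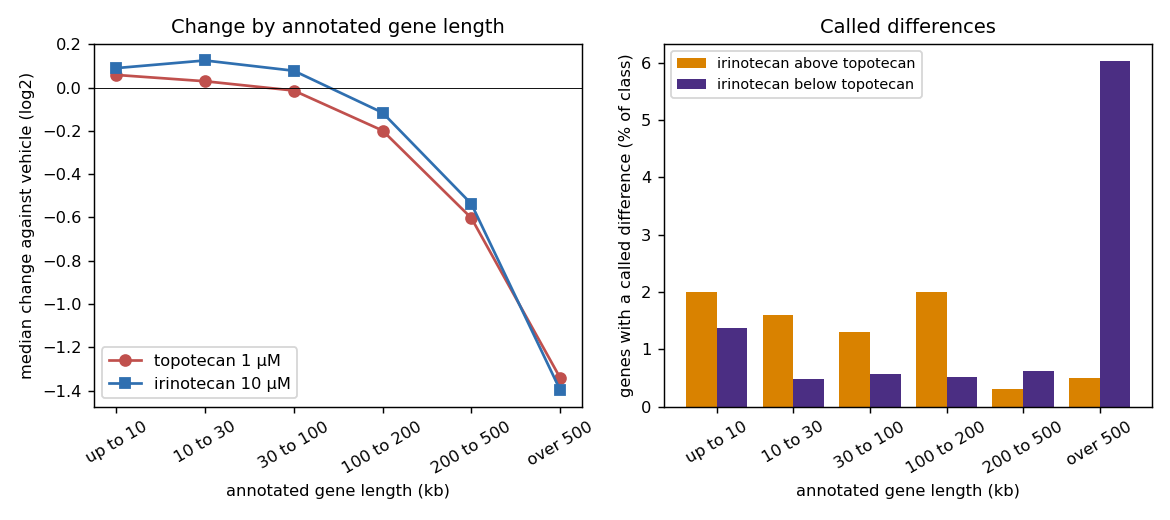
Left, the median change against vehicle (log2) with topotecan (red circles) and irinotecan (blue squares) in 6 classes of annotated gene length in kb; right, the percentage of each class with a called difference, irinotecan above (orange) or below (purple) topotecan. The medians of both drugs fall together from near 0 in genes up to 10 kb to -1.34 and -1.40 in the 199 genes over 500 kb, where 12 of the 13 called differences have irinotecan below topotecan.

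Nkain2, a membrane protein that interacts with a subunit of the sodium pump, shows the shared loss. Its log2 intensity was 10.02, 10.33 and 10.37 (lowest, median, highest) in the topotecan vehicles and 6.57, 7.05 and 7.14 with topotecan. It was 10.52 and 10.49 in the irinotecan vehicles and 6.81, 6.74 and 6.89 with irinotecan. The treated arrays of both drugs lay far below every vehicle array. It fell 9.81-fold with topotecan (-3.29) and 12.9-fold with irinotecan (-3.69), and the difference of -0.40 ± 0.17 did not pass the threshold (adjusted p = 0.195, 95% interval -0.75 to -0.05). Of the genes changed by both drugs in the same direction, 2007 had no called difference, and in 1422 of these (70.9%) the 95% interval of the difference lay inside a 1.5-fold change either way, against 65.0% of all genes. In the others the interval reached farther, so a like effect was not shown.

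By size of the smaller effect, the 10 genes most changed by both drugs with no called difference were Nkain2, Csmd1, Ipw, Cdh13, Nrg3, Kcnma1, Dpp10, Mdga2, Grm7 and Cacna2d3. All of them fell with both drugs in their brightest probe set. A second probe set of Grm7 changed by 0.00 and 0.44 with topotecan and irinotecan, and a dim second one of Kcnma1 by 0.02 and -0.19. Csmd1, a synaptic complement regulator, fell with both drugs (-3.16 and -3.38), and the difference had a 95% interval of -0.58 to 0.13. Cdh13, an adhesion cadherin anchored by a lipid, fell with both drugs (-2.90 and -2.88, interval -0.35 to 0.40). Kcnma1, the large-conductance calcium-activated potassium channel, fell with both drugs (-2.71 and -2.75, interval -0.49 to 0.42). Nrg3, a ligand of ErbB4, fell with both drugs (-2.85 and -3.46), and its interval of -1.07 to -0.14 leaves out 0 although its adjusted p was 0.147. Ipw, a noncoding transcript of the imprinted Prader-Willi region, fell with both drugs (-3.28 and -3.14, interval -0.39 to 0.66).

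Of 63 very long neuronal genes measured, 61 fell with topotecan and 61 fell with irinotecan (22.7% and 9.05% of all genes), with median effects of -1.94 and -1.92 against medians of -0.01 and 0.07 over all genes. The median of the difference was -0.06, against 0.09 over all genes, and it became 0.07 under the new quantile normalization. Of 86 autism candidate genes 62 fell with topotecan and 52 with irinotecan (medians -0.85 and -0.59). Nlgn1, a postsynaptic adhesion molecule, fell with both drugs (-2.06 and -2.24), and Cntnap2, a neurexin-like protein of axons, did so too (-1.94 and -2.14), with adjusted p of 0.628 and 0.767 for their differences. Of 20 glutamate receptor genes 18 fell with topotecan and 16 with irinotecan, and of 35 voltage-gated ion channels 29 and 18. Of all genes 22.7% and 9.05% fell. Grm5, a metabotropic glutamate receptor, fell with both drugs (-2.37 and -1.67, adjusted p = 0.136 for the difference).

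A few very long genes ended lower with irinotecan. Il1rapl1, a synapse organizer over 1 Mb long, had log2 values of 7.24, 7.67 and 7.86 (lowest, median, highest) in the topotecan vehicles and 5.18, 5.58 and 5.85 with topotecan. It had 7.84 and 7.81 in the irinotecan vehicles and 4.78, 4.44 and 3.94 with irinotecan. On the deposited values the irinotecan vehicles lay within the range of the topotecan vehicles, and the irinotecan arrays lay below every topotecan array. With the new quantile normalization the vehicle means were 7.50 (topotecan) and 8.06 (irinotecan), and the drug means 5.30 and 4.91. The effects were -2.07 and -3.44, a difference of -1.37 ± 0.25 (adjusted p = 0.0101). Erbb4, the neuregulin receptor of interneurons, had effects of -2.74 and -3.91 (difference -1.17 ± 0.24, adjusted p = 0.0222), Lrp1b, a large lipoprotein receptor relative, -1.90 and -3.02 (-1.12 ± 0.15, adjusted p = 0.000906) and Csmd3 -1.90 and -2.91 (-1.01 ± 0.22, adjusted p = 0.0301). In all, 7 of the 63 very long genes had irinotecan below topotecan and 1 above it. All 7 were genes whose irinotecan arrays stood near or under 5.01: the irinotecan mean was 5.27 for Kcnip4, 5.17 for Erbb4, 4.88 for Cntn4, 4.67 for Csmd3, 4.39 for Il1rapl1, 4.14 for Lrp1b and 4.10 for Thsd7b. With log2 values under 6 set to 6 in every array none of the 7 was called, and the difference for Lrp1b was 0.06. For Il1rapl1, Lrp1b, Csmd3 and Cntn4 every array of both drugs lay under 6. The floor thus leaves only the difference of their vehicles and cannot decide about these calls. With the new quantile normalization 1 very long gene was called below, and without irinotecan vehicle replicate 1 also 1. The calls for Erbb4 and Csmd3 ended when any 1 of 4 and of 5 arrays was left out, and that for Il1rapl1 without irinotecan vehicle replicate 1 (adjusted p = 0.0837).

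Rbfox1, a neuronal splicing regulator encoded by a gene over 1.5 Mb long, was the 1 member of that list called with irinotecan above topotecan. It had 9.88, 10.31 and 10.61 in the topotecan vehicles and 7.37, 7.66 and 8.14 with topotecan, and 10.87 and 10.81 in the irinotecan vehicles and 9.09, 9.16 and 9.02 with irinotecan. All irinotecan arrays lay between the topotecan arrays and the vehicles. It fell 6.07-fold with topotecan and 3.36-fold with irinotecan, a difference of 0.85 ± 0.22 (adjusted p = 0.0482) that missed the threshold when any 1 of 15 of the 17 arrays was left out.

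Among the fixed lists, the widest gap between the median effects of the drugs was in genes of astrocytes, the glial cells that clear potassium and glutamate around neurons. Of 16 astrocyte markers, 12 fell with topotecan and 6 with irinotecan (22.7% and 9.05% of all genes), with median effects of -0.80 and -0.31. The irinotecan effect was called above the topotecan effect in 7 of the 16 (43.8%, against 2.41% of all genes called in either direction) and called below it in none, and 12 of the 16 differences, called or not, were above 0. The median difference was 0.50, and it was 0.55 under the new quantile normalization and 0.51 with the floor at 6. Median centring gave 0.38, but it moves the difference of every gene by the same amount. The median of all genes went from 0.09 to -0.03 with it. Some neuronal lists also leaned to irinotecan above topotecan, with no called difference. Above 0 were 14 of 15 excitatory neuron markers (median 0.34), 9 of 11 GABA receptors (0.28) and 28 of 35 voltage-gated ion channels (0.23). Of all 13308 genes 8883 were above 0. Other neuronal lists were not above 0 more often than all genes. These were inhibitory interneuron markers (7 of 15, median -0.05), glutamate receptors (13 of 20, 0.09) and very long neuronal genes (23 of 63, -0.06). The mean of the 16 markers was 8.53 to 8.77 in the topotecan vehicles, 7.65 to 7.80 with topotecan, 7.61 to 7.84 in the irinotecan vehicles and 7.37 to 7.42 with irinotecan. On these deposited values, which may not share a scale, the irinotecan vehicles began where the topotecan-treated cultures ended. With the new quantile normalization the irinotecan vehicles stood at 7.88 to 8.11. On that scale their means lay above those of the topotecan-treated arrays for Gfap (7.02 against 5.30) and Aqp4 (7.19 against 5.64).

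Kcnj10, the Kir4.1 potassium channel of astrocytes, was not on the list and had the largest positive difference of all named genes. It stood at 8.74, 9.09 and 9.28 (lowest, median, highest) in the topotecan vehicles and at 6.91, 7.04 and 7.47 with topotecan. It stood at 8.09 and 8.39 in the irinotecan vehicles and at 8.46, 8.49 and 8.87 with irinotecan. The topotecan arrays lay below all their vehicles and the irinotecan arrays above both of theirs. It fell 3.85-fold with topotecan (adjusted p = 5.79e-10) and changed by 0.37 with irinotecan (adjusted p = 0.173), a difference of 2.31 ± 0.22 (adjusted p = 4.41e-05, 95% interval 1.85 to 2.77).

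Gfap, the intermediate filament of astrocytes, stood at 8.01, 8.30 and 8.39 in the topotecan vehicles, at 5.22, 5.56 and 5.76 with topotecan, at 6.38 and 7.00 in the irinotecan vehicles and at 5.73, 6.13 and 6.26 with irinotecan. The groups did not overlap in either experiment, but the irinotecan vehicles were apart from each other by about the size of the irinotecan effect. It fell 6.59-fold with topotecan and 1.57-fold with irinotecan, a difference of 2.07 ± 0.22 (adjusted p = 0.000144). Aqp4, the water channel of astrocyte endfeet, stood at 8.32, 8.66 and 8.80 in the topotecan vehicles, at 5.64, 5.85 and 6.09 with topotecan, at 6.71 and 7.05 in the irinotecan vehicles and at 5.57, 5.73 and 5.63 with irinotecan. On the deposited values the drugs brought it to overlapping levels from vehicles that differed. With the new quantile normalization Aqp4 had drug means of 5.64 (topotecan) and 6.03 (irinotecan). It fell 6.69-fold and 2.36-fold (difference 1.503 ± 0.18, adjusted p = 0.000482).

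**Figure D3:**
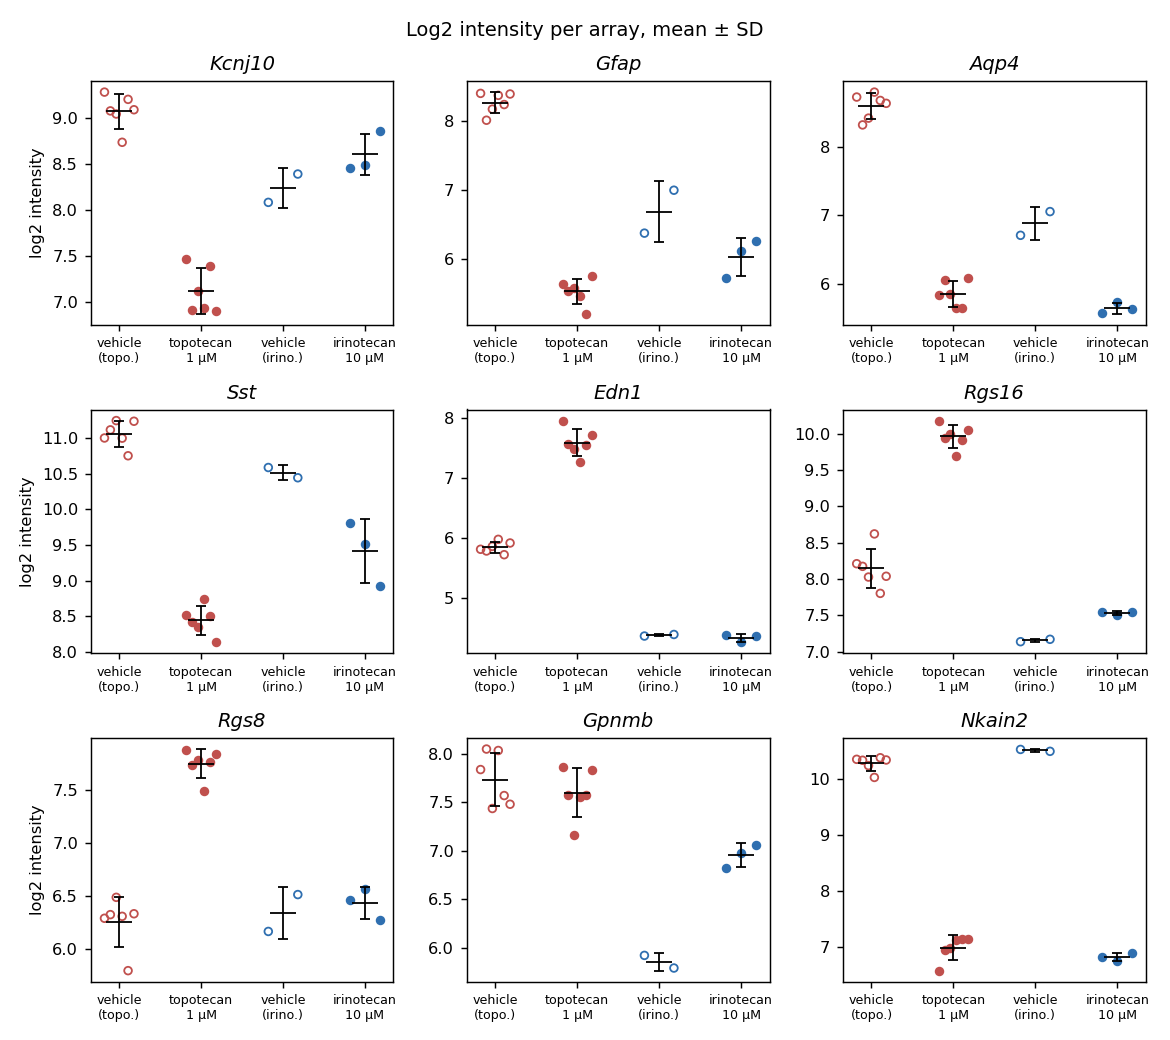
Log2 intensity in each array for 9 genes, with open circles for vehicle arrays, filled circles for drug arrays, red for the topotecan experiment, blue for the irinotecan experiment, and black bars for the mean ± SD. Gfap and Aqp4 begin lower in the irinotecan vehicles, Edn1 lies near 4.4 in both irinotecan groups, and Nkain2 falls to near 7 with both drugs.

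Aldoc, the brain form of aldolase, fell by 0.96 with topotecan and differed by 0.01 from vehicle with irinotecan (difference 0.97 ± 0.12, adjusted p = 0.000482). Glul, glutamine synthetase, fell by 0.32 with topotecan and rose by 0.33 with irinotecan (difference 0.65 ± 0.09, adjusted p = 0.00129). Acsbg1, an acyl-CoA synthetase, fell with both drugs (-1.46 and -0.54, difference 0.92 ± 0.17), and Mlc1 and Atp1b2, membrane proteins of astrocytes, had differences of 0.77 and 0.45. The 5 smallest differences of the list ran from Ntsr2 at -0.35 to Sox9, the glial transcription factor, at 0.02. Slc4a4, a bicarbonate transporter, had effects of -1.46 and -1.49 (interval of the difference -0.33 to 0.27). The changes in astrocyte marker RNA were thus uneven within each drug.

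Further genes among the 15 largest positive differences were on none of the cell type lists. Slc39a12, a zinc importer, fell by 1.40 with topotecan and changed by -0.14 with irinotecan (difference 1.26 ± 0.14). Pla2g7, which degrades platelet-activating factor, had effects of -1.31 and -0.11 (difference 1.21 ± 0.16), Bcan, the proteoglycan brevican, -1.43 and -0.35 (1.08 ± 0.17) and Folh1, a glutamate-releasing peptidase, -0.85 and 0.44 (1.29 ± 0.20). Fam107a, an actin-binding stress protein, fell with both drugs, with effects of -2.03 and -0.85 (difference 1.18 ± 0.21), while a dimmer probe set of it had a difference of 0.19. Glycam1, a mucin-like protein, fell with both drugs (-2.56 and -1.27, 1.29 ± 0.20), and Pcsk6, a proprotein convertase, had effects of -1.18 and -0.04 (1.14 ± 0.22). Their adjusted p ran from 0.00023 for Slc39a12 to 0.0139 for Pcsk6. Slco1c1, a transporter of thyroid hormone at the blood-brain barrier, fell by 1.25 with topotecan, with a difference of 1.05 ± 0.15.

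Gpnmb and Lyz2, which macrophages and microglia express, were also higher with irinotecan relative to topotecan. Gpnmb stood at 7.44, 7.70 and 8.05 in the topotecan vehicles and at 7.17, 7.58 and 7.87 with topotecan, groups that overlapped. It stood at 5.92 and 5.79 in the irinotecan vehicles and at 6.82, 6.98 and 7.06 with irinotecan, a clear step up. It rose 2.14-fold with irinotecan (difference 1.24 ± 0.23, adjusted p = 0.0123). Lyz2, lysozyme, fell by 0.67 with topotecan and changed by 0.40 with irinotecan (difference 1.07 ± 0.23, adjusted p = 0.0253). None of the 8 microglial markers had a called difference, and their median difference was 0.17. Both calls ended without irinotecan vehicle replicate 1 (adjusted p = 0.071 and 0.0976) and without vehicle replicate 2 (0.0787 and 0.115), and that of Lyz2 also without irinotecan replicate 2 (0.0655).

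Of 24 markers of proliferating cells and progenitors, 11 fell with topotecan and 1 with irinotecan (22.7% and 9.05% of all genes). The median difference was 0.39. It was 0.33 under the new quantile normalization and 0.20 with the floor at 6. Median centring, which moves every gene alike, gave 0.27. Of the 24 differences 21 were above 0, with 1 called, Plk1, the mitotic kinase (0.79 ± 0.20, adjusted p = 0.0463). That call missed the threshold when any 1 of 13 arrays was left out. Olig1, a transcription factor of the oligodendrocyte lineage, fell by 0.95 with topotecan and changed by -0.15 with irinotecan (0.80 ± 0.20, adjusted p = 0.0407). Kdr, the endothelial VEGF receptor, had effects of -0.95 and -0.23 (0.71 ± 0.16, adjusted p = 0.0301). The Olig1 call missed the threshold when any 1 of 11 arrays was left out and the Kdr call without any of 4. The irinotecan vehicles also began lower on the common quantile scale: the oligodendrocyte mean was 6.19 to 6.26 against 6.44 to 6.61 in the topotecan vehicles, and the endothelial mean 5.85 to 5.94 against 6.22 to 6.63. The part of these levels in the differences was not tested.

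Sst and Dusp5 had called differences that ran in opposite directions. Hspb1 rose with topotecan, and no difference between the drugs is read from it, as described below. The start sites of Sst, Hspb1 and Dusp5 carry textbook control elements. The 150 bases before their annotated starts are shown, 5′ to 3′ on the strand of the gene, from the RefSeq promoter table of GRCm38.p6. Sst lies at chr16:23890845-23890994 on the minus strand, with the cAMP response element TGACGTCA in capitals. Hspb1 lies at chr5:135887769-135887918 on the plus strand, with matches to GAANNTTC, the core of the heat shock element, in capitals. Dusp5 lies at chr19:53528995-53529144 on the plus strand, with a pair of adjoining CArG boxes, the serum response element core, in capitals.
Sst: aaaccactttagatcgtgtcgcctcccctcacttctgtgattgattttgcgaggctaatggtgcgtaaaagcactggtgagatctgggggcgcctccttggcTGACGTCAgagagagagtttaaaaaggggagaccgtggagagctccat
Hspb1: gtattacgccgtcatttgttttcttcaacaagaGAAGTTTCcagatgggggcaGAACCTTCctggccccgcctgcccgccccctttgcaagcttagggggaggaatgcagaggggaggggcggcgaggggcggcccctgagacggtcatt
Dusp5: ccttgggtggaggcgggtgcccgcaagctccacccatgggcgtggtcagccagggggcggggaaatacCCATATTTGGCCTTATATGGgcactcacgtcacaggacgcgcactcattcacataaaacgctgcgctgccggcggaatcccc
The element of Sst begins 48 bases before the start, the matches of Hspb1 117 and 97 bases and the boxes of Dusp5 82 and 72 bases. Searched on both strands, 1.36% of 32851 windows of this length hold the cAMP response element, 3.95% the heat shock core and 0.916% a CArG box. A match describes these letters only.

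Sst encodes somatostatin, the peptide of a large class of interneurons. It stood at 10.75, 11.06 and 11.24 in the topotecan vehicles and at 8.14, 8.46 and 8.74 with topotecan. It stood at 10.59 and 10.44 in the irinotecan vehicles and at 9.81, 9.52 and 8.92 with irinotecan. Treated and vehicle arrays were apart in both experiments, and every irinotecan array lay above every topotecan array. Sst fell 6.10-fold with topotecan and 2.14-fold with irinotecan, a difference of 1.51 ± 0.24 (adjusted p = 0.00321). The other markers of inhibitory interneurons gave no called difference (1 of 15 in all, median -0.05). Npy, another interneuron peptide, fell with both drugs (-1.98 and -1.46, adjusted p = 0.215 for the difference).

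Among the 112 genes with irinotecan below topotecan, 74 rose with topotecan and were not called with irinotecan. Of the 112, 30 had both irinotecan group means under 5.01 and 19 more had the irinotecan mean alone under it, so only 63 were measured above the limit in all 4 groups; of the 209 with irinotecan above topotecan 192 were. Rgs16, a brake on G protein signalling, was clear of the limit: it stood at 7.80, 8.11 and 8.62 in the topotecan vehicles, at 9.70, 9.97 and 10.18 with topotecan, at 7.14 and 7.17 in the irinotecan vehicles and at 7.54, 7.50 and 7.54 with irinotecan. All treated arrays lay above their vehicles, by far more with topotecan. It rose 3.52-fold with topotecan and changed 1.30-fold with irinotecan (adjusted p = 0.12), a difference of -1.44 ± 0.20 (adjusted p = 0.000939). Rgs8, of the same family, stood at 5.80, 6.32 and 6.49 in the topotecan vehicles, at 7.49, 7.78 and 7.89 with topotecan, at 6.17 and 6.52 in the irinotecan vehicles and at 6.46, 6.57 and 6.27 with irinotecan. On the deposited values the vehicles of both experiments overlapped, and 2 of the 3 irinotecan arrays lay within their range, with replicate 2 just above it. With the new quantile normalization the vehicle means were 6.11 (topotecan) and 6.71 (irinotecan). Rgs8 rose 2.82-fold with topotecan and changed 1.07-fold with irinotecan (difference -1.40 ± 0.19, adjusted p = 0.000955).

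Edn1, which encodes the vasoactive peptide endothelin-1, stood at 5.72, 5.84 and 5.98 in the topotecan vehicles and at 7.28, 7.55 and 7.96 with topotecan. It stood at 4.36 and 4.39 in the irinotecan vehicles and at 4.39, 4.26 and 4.37 with irinotecan, all under the limit. It rose 3.35-fold with topotecan. It passed the filter through other arrays than these 5, so no difference between the drugs is read from it. Its receptor gene Ednrb, expressed by astrocytes, fell by 0.65 with topotecan and rose by 0.43 with irinotecan (difference 1.08 ± 0.14, adjusted p = 0.000828). Hspb1, the small heat shock protein HSP27, rose 2.37-fold with topotecan, from 6.11, 6.75 and 7.09 to 7.57, 7.95 and 8.18. It stood at 5.23 and 4.67 in the irinotecan vehicles and at 4.70, 4.88 and 5.39 with irinotecan, with overlapping arrays around the limit. Both irinotecan group means were under the limit, so no difference between the drugs is read from it, although it counts among the calls. None of the other 15 heat shock genes had a called difference.

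Dusp5, a nuclear phosphatase of ERK, stood at 6.93, 7.10 and 7.31 in the topotecan vehicles, at 7.48, 7.76 and 7.96 with topotecan, at 5.84 and 5.65 in the irinotecan vehicles and at 5.27, 5.45 and 5.59 with irinotecan. It lay above vehicle in every topotecan array and below vehicle in every irinotecan array. It rose 1.54-fold with topotecan and changed by -0.31 with irinotecan (difference -0.93 ± 0.16, adjusted p = 0.00668). Egr1, an immediate early transcription factor, differed by -0.05 from vehicle with topotecan and fell 1.79-fold with irinotecan (difference -0.79 ± 0.13, adjusted p = 0.00649). Of 32 activity-regulated genes these were the only called differences (2.41% of all genes were called). With topotecan 13 fell and 9 rose, and with irinotecan 12 fell and 3 rose, against 22.7% and 19.8%, and 9.05% and 13.5%, of all genes. Fos changed by -0.26 with topotecan and fell by 0.83 with irinotecan (adjusted p = 0.214 for the difference), Arc fell with both drugs (-0.75 and -1.001, adjusted p = 0.515), and Jun rose by 1.07 and 1.37 (0.22). The calls for Dusp5 and Egr1 ended without irinotecan vehicle replicate 1 (adjusted p = 0.0865 and 0.0869).

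Further named genes with irinotecan below topotecan included Pcp4l1, a small calmodulin-binding protein relative, which changed by 0.07 with topotecan and fell by 1.15 with irinotecan (difference -1.21 ± 0.23). Cntnap5b, a neurexin-like adhesion molecule, had effects of -0.55 and -1.70 (-1.15 ± 0.24), with an irinotecan mean of 4.92, under the limit. Its call ended when any 1 of 4 arrays was left out. With the new quantile normalization its difference was -0.93 and was not called. Pla2g10os, a noncoding transcript named for the strand opposite Pla2g10, rose 2.42-fold with topotecan and had both irinotecan means under the limit, so no difference is read from it either. Srsy, Tdpoz2 and Speer4cos belong to multicopy families whose probes can share transcripts, and their differences of -1.27, -1.22 and -1.30 are uncertain for that reason. Rpsa, a ribosomal protein, rose by 0.38 with topotecan and changed by -0.03 with irinotecan (-0.41 ± 0.09), while a dimmer probe set of it had a difference of -0.06, and it was the only called difference among 51 ribosomal proteins.

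All 33 genes called in opposite directions by the drugs also had a called difference; 24 fell with topotecan and rose with irinotecan and 9 did the reverse. Sostdc1, a secreted antagonist of BMP and Wnt signals, stood at 7.35, 7.54 and 7.72 in the topotecan vehicles, at 6.62, 6.89 and 7.14 with topotecan, at 6.34 and 6.47 in the irinotecan vehicles and at 7.10, 7.04 and 7.11 with irinotecan. Topotecan arrays lay below and irinotecan arrays above their vehicles without overlap. It fell 1.56-fold and rose 1.60-fold (difference 1.32 ± 0.16, adjusted p = 0.000482). Sertm1 (-0.38 and 0.52) and Iyd, an iodotyrosine deiodinase (-0.45 and 0.53), moved the same way, and their called differences ended when any 1 of 5 arrays and 1 array were left out. Rdh5, a retinol dehydrogenase, had both irinotecan means under the limit, and its call ended when any 1 of 12 arrays was left out. Tspan17, a tetraspanin, did the reverse: it stood at 8.72, 8.91 and 9.00 in the topotecan vehicles, at 9.28, 9.43 and 9.53 with topotecan, at 8.82 and 8.90 in the irinotecan vehicles and at 8.54, 8.57 and 8.42 with irinotecan. On the deposited values the irinotecan vehicles lay within the range of the topotecan vehicles, and the drug arrays left it on opposite sides. With the new quantile normalization Tspan17 had vehicle means of 8.78 (topotecan) and 9.03 (irinotecan). It rose 1.46-fold and fell 1.28-fold (difference -0.90 ± 0.11, adjusted p = 0.000482). Ptgs2, cyclooxygenase 2, rose by 0.41 and fell by 0.82 (-1.24 ± 0.30, adjusted p = 0.0396), and Coro6, a coronin, rose by 0.26 and fell by 0.91 (-1.17 ± 0.18). The NMDA receptor subunit gene Grin2d rose by 0.32 and fell by 0.59, but its second probe set had a difference of 0.10. Its irinotecan mean of 4.80 lay under the limit, and its irinotecan arrays overlapped their vehicles. For H2-Q10, a class I MHC gene of a multicopy family with effects of 0.59 and -0.87, a second probe set gave -0.07. The irinotecan mean of H2-Q10 was 4.37, also under the limit. The calls for Ptgs2, Grin2d and H2-Q10 ended when any 1 of 10, 9 and 9 arrays was left out.

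**Figure D4:**
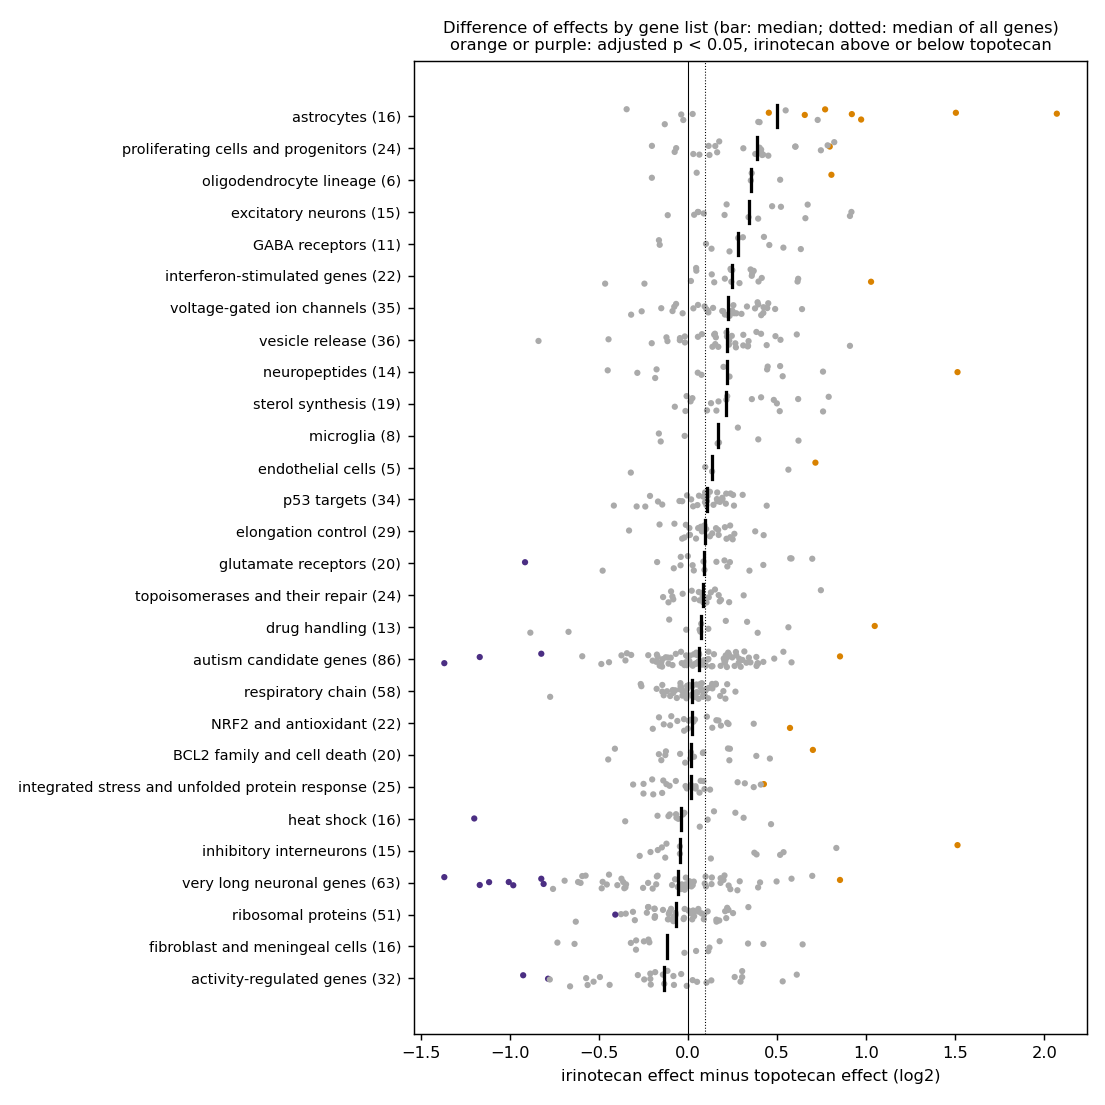
Each point is a gene of a fixed list (number measured in brackets), placed by the irinotecan effect minus the topotecan effect (log2); orange and purple mark adjusted p under 0.05 with irinotecan above or below topotecan, black bars are list medians, and the dotted line is the median of all genes, 0.09. The astrocyte list lies farthest to the right with a median of 0.50 and the activity-regulated genes farthest to the left with -0.14.

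Of 24 topoisomerases and enzymes that repair trapped topoisomerase, none had a called difference in limma, where 2.41% of all genes did, so the count says little about the group. They had a median difference of 0.08, against 0.09 over all genes. Under median centring it was -0.04, against -0.03 over all genes. Top1, the target of both drugs, stood at 9.12, 9.18 and 9.23 in the topotecan vehicles, at 9.23, 9.43 and 9.47 with topotecan, at 8.84 and 8.77 in the irinotecan vehicles and at 8.94, 9.04 and 9.02 with irinotecan. All irinotecan arrays and all topotecan arrays but replicate 3 lay above their vehicles. It rose by 0.22 with topotecan (adjusted p = 0.00136) and changed by 0.19 with irinotecan (adjusted p = 0.0851), and the difference of -0.03 had a 95% interval of -0.22 to 0.16. Top2b, the neuronal type II enzyme, had an interval of -0.31 to 0.14, and Tdp1, which removes topoisomerase I from DNA ends, of 0.04 to 0.42 (adjusted p = 0.17). Top2a, the enzyme of dividing cells, fell by 0.66 with topotecan and changed by 0.09 with irinotecan (difference 0.75 ± 0.21, adjusted p = 0.0657).

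Of 34 p53 targets 11 rose with topotecan and 7 with irinotecan, against 19.8% and 13.5% of all genes. None had a called difference, which at 2.41% of all genes says little about the group. The median difference was 0.10, against 0.09 over all genes. Under median centring it was -0.02, against -0.03 over all genes. Cdkn1a, the p21 cell cycle inhibitor, rose by 0.45 with topotecan and changed by 0.28 with irinotecan (interval of the difference -0.44 to 0.10), and Mdm2, the ligase that degrades p53, changed by 0.05 and 0.21 (-0.17 to 0.49). Btg2, an antiproliferative factor, rose by 0.50 and 0.47. Among 20 BCL2 family and cell death genes, Hrk, a BH3-only death protein of neurons, rose with both drugs, by 0.60 and 1.30 (difference 0.70 ± 0.17, adjusted p = 0.0373, missed when any 1 of 13 arrays was left out). Its arrays ran from 6.58 to 7.13 with topotecan against 5.99 to 6.32 in vehicle, and were 7.43, 7.66 and 7.89 with irinotecan against 6.39 and 6.33, so both groups stood clear of their vehicles. Of 22 interferon-stimulated genes 1 differed, Ifit2, which changed by -0.06 with topotecan and rose by 0.97 with irinotecan from vehicles under the limit (difference 1.03 ± 0.23, adjusted p = 0.0322). That call ended when any 1 of 4 arrays was left out, with 0.69 (adjusted p = 0.261) without irinotecan vehicle replicate 1.

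Of 37 genes listed for the handling of these drugs 13 were measured above the filter, and Slco1c1 alone had a called difference. The carboxylesterase genes Ces2e and Ces2g, of the family that activates irinotecan, stood under 5.01 in both irinotecan groups, and their differences of 0.33 and 0.39 did not pass (adjusted p = 0.244 and 0.58). Abcg2, an efflux pump for topotecan, rose by 1.03 with topotecan and changed by 0.15 with irinotecan (difference -0.89 ± 0.23, adjusted p = 0.0547). Abcb1a, the P-glycoprotein pump, changed by 0.26 and 0.37 (adjusted p = 0.859). Ache, acetylcholinesterase, which irinotecan inhibits as a protein, changed by -0.24 and -0.16 (adjusted p = 0.922).

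Ube3a, the ubiquitin ligase gene silenced on the paternal chromosome of neurons by a long antisense transcript, rose by 0.21 with topotecan and by 0.49 with irinotecan in its brightest probe set, a difference of 0.28 (95% interval -0.00 to 0.57, adjusted p = 0.255). Its arrays ran from 9.34 to 9.66 with topotecan against 9.20 to 9.43 in vehicle, which overlapped, and were 9.49, 9.44 and 9.71 with irinotecan against 9.17 and 8.93, which did not. A second Ube3a probe set changed by -4.73 with topotecan, from a mean of 10.04 to 5.31, and by -5.45 with irinotecan, from 10.05 to 4.60, which lies under the limit. Its difference of -0.72 ± 0.25 did not pass over all probe sets (adjusted p = 0.16). Snhg14, the host of the antisense transcript, fell with both drugs (-1.22 and -0.78, interval of the difference 0.04 to 0.84, adjusted p = 0.205).

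Other topotecan arrays of the series were set beside these effects as values, since each was a single array. A topotecan array at 24 h, whose label gives no dose, used the same 2 vehicle arrays as irinotecan, so those effects share their controls. Kcnj10 changed by -0.16 on it, against -1.95 with topotecan at 1 µM and 0.37 with irinotecan. Gfap changed by -0.31, against -2.72 and -0.65, and Sst by -0.28, against -2.61 and -1.10. Rgs8 changed by 0.08, against 1.496 and 0.09, while Rgs16 changed by 0.85, against 1.82 and 0.37. The median of the astrocyte markers was 0.07 at 24 h and that of the very long neuronal genes -1.73. Topotecan at 1000 nM in a dose series on the earlier array type, against 3 vehicle arrays, gave -0.31 for Kcnj10, -1.46 for Gfap, -1.74 for Sst, 1.31 for Rgs8, 1.40 for Rgs16 and 0.98 for Edn1, with medians of -0.28 for the astrocyte markers and -1.55 for the very long genes. The labelled dose of that array matches the topotecan arrays described here, and for Kcnj10 the values of -0.31 and -1.95 were far apart. How much of the gap between topotecan and irinotecan lies in time, dose or culture was not tested.

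**Figure D5:**
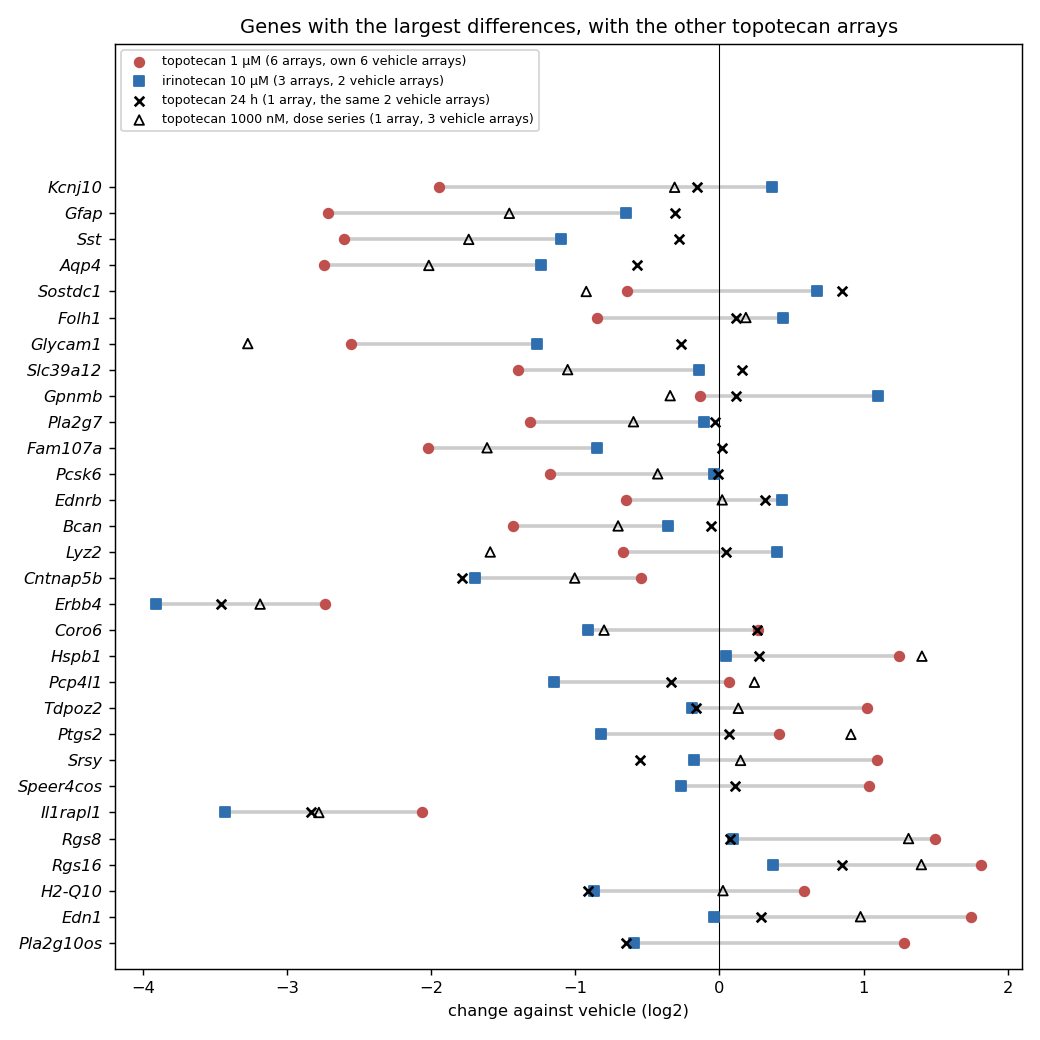
Change against vehicle (log2) of 30 genes, the 15 largest called differences in each direction after predicted and receptor-family genes were left out. Red circles are topotecan 1 µM and blue squares irinotecan 10 µM, joined by grey bars. Crosses are the topotecan 24 h array and open triangles the topotecan 1000 nM array of the dose series. No difference between the drugs is read from Edn1, Hspb1 and Pla2g10os. For Kcnj10, Gfap and Sst the cross lies between -0.31 and -0.16, away from the topotecan 1 µM circle.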

How the data were processed

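The values analysed were intensity summaries per probe set on a linear scale as deposited, made by the authors with Affymetrix Expression Console and RMA, per the submitters' processing notes. Versions and the sets of arrays normalized together are not given in the sources used here. Some sample descriptions contradict the titles, and groups follow titles and treatment labels. Log2 was taken of each deposited value. Of 41345 probe sets, 23521 named 1 gene, 1814 several and 16010 none. The brightest probe set stood for each of 22180 genes, and dim genes, those whose average over the 34 arrays of the type lay below its 40th percentile (5.01), were dropped, which kept 13308. Group means of the 17 arrays were fitted together with limma 3.58.1 in R 4.3.3 (13 residual degrees of freedom), 2-sided, with Benjamini-Hochberg adjustment over all genes kept at 0.05. The fit was tested on simulated data. The number of arrays limits the precision.

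Genes were named by rule: the 15 largest called differences in each direction without overlap of per-array effects, predicted and receptor-family genes counted but not named (10 of these exceeded the last gene named below topotecan); the 10 genes changed most by both drugs with no called difference; up to 4 called members per list; up to 10 genes called in opposite directions; and a fixed set including Top1 and Ube3a. Other list members, named to describe a list, were chosen after their values were seen. The members and lists were chosen with earlier results of these data known. Lengths were known for 99.4% of genes kept, from RefSeq tables. Alternatives were another normalization, centring, filters, probe set rules, array weights, a replicate block, all 34 arrays in 1 fit, a floor at 6 and leaving out each array.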

Additional observations from a re-analysis of the deposited data

Results flagged for a closer look

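Among 156 groups of 6 values (77 genes and the long-gene score, topotecan experiment), 15 had 1 array far from the other 5 by Dixon's criterion, and chance gives about 1 group in 20. The groups of 3 and 2 irinotecan arrays are too small for it. Topotecan vehicle replicate 4 was that array most often. It had Ipw at 9.53 against 10.03 to 10.12 in the other vehicles. It had Kcnma1 at 9.20 against 9.73 to 9.88 in the other vehicles. It had Mdga2 at 9.16 against 9.46 to 9.56 in the other vehicles. On it Lrp1b was 6.91 against 7.23 to 7.33 in the other vehicles. On it Iyd was 5.29 against 5.59 to 5.71 in the other vehicles. On it Mdm2 was 9.71 against 9.25 to 9.41 in the other vehicles. The long-gene score of that array was 0.413 against 0.473 to 0.495. Rgs8 was 5.80 in topotecan vehicle replicate 5 against 6.29 to 6.49 in the rest of its group. Olig1 was 7.93 in topotecan vehicle replicate 6 against 8.22 to 8.28 in the rest of its group. Top2b was 9.18 in topotecan vehicle replicate 1 against 8.93 to 9.01 in the rest of its group. Nkain2 was 6.57 in topotecan replicate 1 against 6.94 to 7.14 in the rest of its group. Top1 was 9.23 in topotecan replicate 3 against 9.41 to 9.47 in the rest of its group. Rgs8 was 7.49 in topotecan replicate 4 against 7.74 to 7.89 in the rest of its group. Mdga2 was 6.30 in topotecan replicate 6 against 6.80 to 6.94 in the rest of its group. Cntnap5b was 4.74 in topotecan replicate 6 against 5.43 to 5.67 in the rest of its group.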

How the results depend on the processing

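The 321 called differences became 172 with a new quantile normalization (166 shared), 173 with no filter on dim genes, 1853 with array weights and 525 with values under 6 set to 6. All 34 arrays of the type in 1 fit gave 2 (Kcnj10 and Rgs8), with 17 more arrays in it. Leaving out single arrays gave 45 to 832, and leaving out topotecan replicate 4 and topotecan vehicle replicate 4 together 1336 (with 3614 irinotecan changes and 2186 genes alike). The floor and the removal of both arrays were made after seeing the data. The share with irinotecan above topotecan was 65.1%, 24.4% with centring, 46.8% with no filter and 77.8% with a filter at the 60th percentile. Same-numbered arrays did not deviate together (correlations -0.53 to 0.25), which does not settle whether the numbers pair arrays. With the replicate block 19 differences, 1329 irinotecan changes and 1065 genes alike were called, from 321, 2995 and 2007. Irinotecan changes were 4893 with array weights and 1539 to 3415 without single arrays, and genes changed by both drugs alike 1242 at the lowest. The long-gene score difference of -0.006 was -0.049 with a limit of 200 kb, 0.029 with quantile normalization, 0.051 with no filter and 0.035 with the floor at 6. The median difference of the very long genes became 0.0694 with quantile normalization. The difference of Lrp1b became 0.0645 with the floor at 6, which sets all its drug arrays to 6. Of 52 named genes with called differences, 18 kept the call without any single array, 35 with quantile normalization, 42 with centring and 17 with the replicate block. Except for the floor and the block, whose construction shows it, the cause was not tested.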

Other observations

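The vehicle cultures of the experiments differed in gene groups other than the glial ones when the 17 arrays were quantile normalized together. The mean of 19 sterol synthesis genes was 7.85 to 8.53 in the 6 topotecan vehicles and 9.39 to 9.46 in the 2 irinotecan vehicles, without overlap. Of these 19 genes 10 fell with topotecan and none with irinotecan (22.7% and 9.05% of all genes), and no difference of effects was called. The mean of 34 p53 targets was 7.95 to 8.37 against 7.35 to 7.40, that of 36 vesicle release genes 8.30 to 8.85 against 9.27 to 9.28, and that of 11 GABA receptor genes 8.65 to 9.18 against 9.59 to 9.62.

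Olfactory and vomeronasal receptor genes are not ones that neurons of the cortex are known for. Most of those that passed the filter were higher with topotecan, but the filter mean included the topotecan arrays, which favours genes high there. The median log2 value of all probe sets was also 5.46 to 5.52 with topotecan and 5.37 to 5.43 in its vehicles. The part of either in the counts below was not tested. Of 93 olfactory receptor genes kept, 67 rose with topotecan and 2 with irinotecan (19.8% and 13.5% of all genes), with median effects of 0.54 and -0.03. In 5 of them irinotecan was called below topotecan (0.842% of all genes). Of 30 vomeronasal receptor genes 22 rose with topotecan and 1 with irinotecan (medians 0.70 and -0.05), and 4 had irinotecan called below topotecan. These families share sequence, so single members are uncertain. Their levels in the irinotecan arrays were not set against the limit, so no difference between the drugs is read from these counts.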
